A study of Homo sapiens with 12 samples.

Results

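The MYC, MAX and MXD network was read here as 10 genes: MYC, MAX, MXD1, MXD3, MXD4, MXI1, MNT, MGA, MLX and MLXIP. Members were taken by gene symbol from a table of mRNA levels that holds 19659 genes, and all 10 were found in it. The level of a gene is the sum of FPKM (sequenced fragments corrected for transcript length and library size) over its transcripts. All 10 passed the filter on low values, a mean of at least 0.5 FPKM over the 6 RNA-Seq libraries, which left 10394 genes to test. Cells labelled HEL, a human erythroleukaemia line, had been cultured with 40 µg/ml of DMAG, a glucoside of a methylated ellagic acid from the plant Sanguisorba, for 3 days. Controls carry no dose or day in their labels, and whether they received the solvent is not given in the sources used here. RNA-Seq and small RNA sequencing each had 3 DMAG and 3 control samples. Whether the samples of a group were grown apart is not stated in the labels, and the p-values therefore reflect sample-to-sample spread alone, which could be technical.

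MYC is a transcription factor of the basic helix-loop-helix leucine zipper class that binds DNA as a dimer with MAX, at E-boxes with the core CACGTG, and raises transcription of genes for ribosome assembly, nucleotide synthesis and cell growth. MXD proteins, MXI1, MNT and MGA take MAX as their partner too, bind the same sites and bring in repressors of transcription, and several MXD genes are known to rise as blood cells leave the cell cycle. MLX and MLXIP (MondoA) form a neighbouring branch that responds to sugar phosphates. In blood cells MYC is known for driving proliferation, and it is often raised in acute leukaemia.

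Of the 10 genes, MXD1, MXD3 and MLXIP were higher in DMAG cells, MXI1, MNT and MLX were lower, and MYC, MAX, MXD4 and MGA did not pass the test (limma, Benjamini-Hochberg adjusted p under 0.05 over all genes tested). The same test called 48.6% of all genes, 22.4% as higher and 26.1% as lower, so 6 called members of 10 lie near the background. Groups did not overlap for 59.5% of all genes tested and for 7 of the 10 members. In bulk samples, fewer cells of a type and less RNA per cell cannot be told apart. The largest changes that passed were within the MXD genes, with MXD1 and MXD3 higher and MXI1 lower, while the summed level of the MXD genes overlapped between groups.

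**Figure D1:**
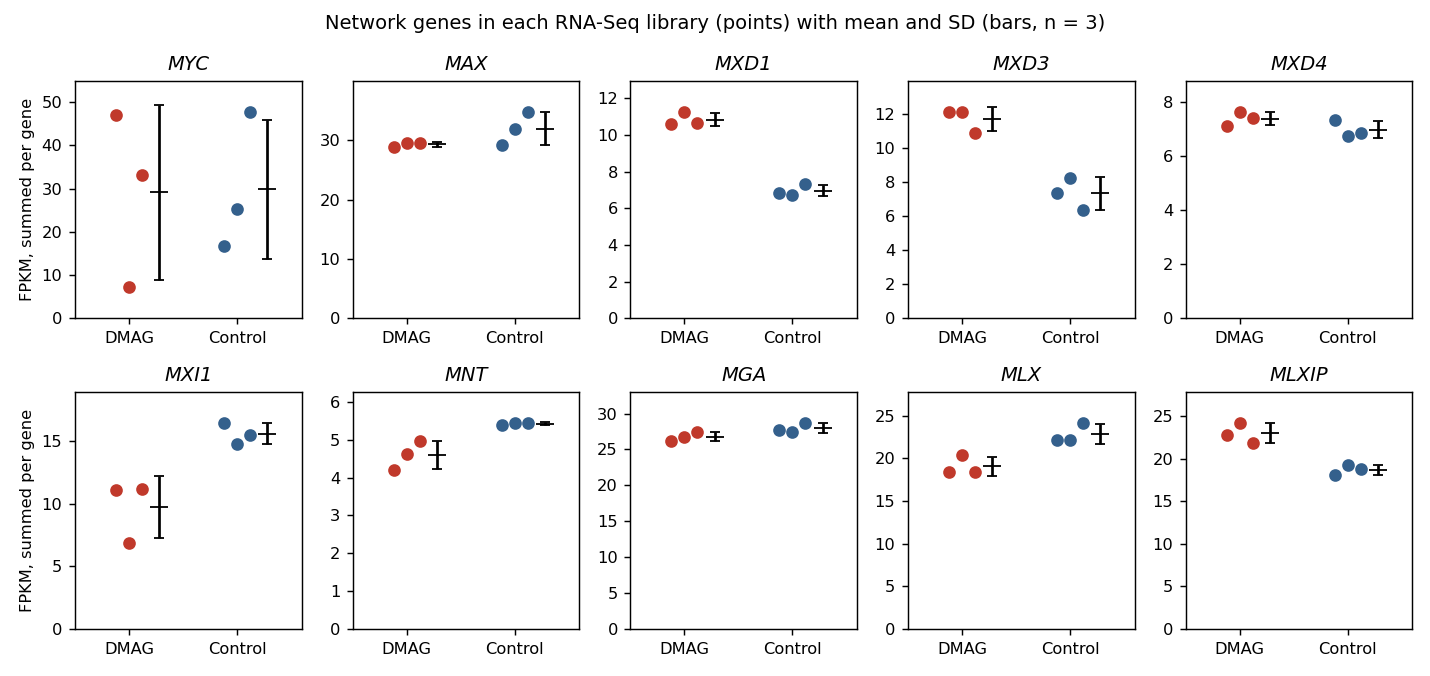
Each panel plots the level of 1 network gene (vertical axis, FPKM summed over transcripts) in the 3 DMAG and the 3 control libraries as points, with the mean and SD as bars. MXD1, MXD3 and MLXIP lie above the controls in all 3 DMAG libraries, MXI1, MNT, MGA and MLX lie below them, and the MYC points range from 7.15 to 47.7 FPKM with overlap.

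The 6 RNA-Seq libraries had like depth, 0.973 to 1.10 times that of the first control, as estimated from the smallest steps of genes with 1 transcript, and their absolute depth is unknown. Libraries of 1 group correlated at 0.985 to 0.990 on log2(FPKM + 1), and libraries of different groups at 0.959 to 0.963. Total FPKM was 328400 to 332900 in DMAG libraries and 348900 to 357800 in controls. Equal medians were tried as an alternative, and equal totals were not, so small falls and lower sums of FPKM carry that limit. The third DMAG library stood apart in red cell RNA. Its 8 red cell markers summed to 1946 FPKM (HBB 1367), with AHSP, CA1, HBD and SLC4A1 below 0.5 FPKM on average over the libraries. That sum was 0.268 and 0 in the other DMAG libraries and 0.0678 to 0.237 in the controls. Without that library, 6 of the 10 network genes were again called, 3 higher and 3 lower. Of 16 markers of the erythroid and megakaryocytic lineages that HEL cells are known for, 15 were below 0.5 FPKM on average, with GP9 at 0. All 16 together summed to 5.48 to 8.33 FPKM in DMAG cells, highest in the third library, and to 4.39 to 5.30 FPKM in controls. EPOR, the 1 marker tested, was higher (log2 change 0.22), as were 22.4% of all genes. Of the myeloid granule markers, 3 were higher and 5 lower, against 22.4% and 26.1% over all genes. All 9 of 9 were above the level tested, at a sum of 3605 to 4121 FPKM in DMAG cells and 4153 to 4475 FPKM in controls. These data go against the HEL label in that respect, and the part these markers play in the network values was not tested.

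MYC itself had 47.1, 7.15 and 33.1 FPKM in the DMAG libraries, against 16.6, 25.3 and 47.7 FPKM in the controls. The groups overlapped widely, and the lowest library was the second DMAG one. The means were 29.1 ± 20.3 FPKM in DMAG cells and 29.9 ± 16.1 FPKM in controls (SD, n = 3 each). The log2 change was -0.25 (limma adjusted p = 0.794), and its 95% interval, -1.99 to 1.48, holds sizeable changes of either sign. Its sign was not stable: without the second DMAG library the log2 change was 0.52, and without the third control it was 0.14. The spread of MYC within groups was 1.09 on the log2 scale. Of 8023 genes that averaged 5 FPKM or more, 17 had a larger one, which is 0.212% of them, and the median over those genes was 0.0746.

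MAX, the obligate partner of MYC, also pairs with the MXD proteins. It had 28.9, 29.6 and 29.6 FPKM in DMAG cells, against 29.3, 31.9 and 34.8 FPKM in controls. The DMAG libraries lay close together and overlapped the lowest control. The log2 change was -0.12 (SE 0.064, limma adjusted p = 0.180), and it passed only when the first control was left out (-0.18, adjusted p = 0.0393). The ratio of MYC to MAX, which takes its spread from MYC, was 1.63, 0.242 and 1.12 in DMAG cells and 0.567, 0.793 and 1.37 in controls, with overlap.

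MXD1, which encodes the repressor MAD1, had 10.6, 11.3 and 10.7 FPKM in DMAG cells, against 6.84, 6.73 and 7.33 FPKM in controls. All DMAG libraries were above all controls, by far more than the spread within a group. The ratio of means was 1.56, and the log2 change of 0.57 (SE 0.053, 95% interval 0.44 to 0.70) had an adjusted p of 0.00039 in limma. MXD1 ranked 761 of 10394 genes by p, the highest rank among the members. Leaving out any 1 library kept the call, with adjusted p between 0.00148 and 0.00251.

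MXD3, a repressor known in mouse cells for expression in S phase, had 12.1, 12.1 and 10.9 FPKM in DMAG cells, against 7.38, 8.26 and 6.36 FPKM in controls. The groups did not overlap, and the ratio of means was 1.597. The log2 change was 0.61 (SE 0.094, limma adjusted p = 0.00265), and it lay between 0.53 and 0.69 when each library was left out in turn. MXD4, the third repressor of the MXD name, had 7.14, 7.64 and 7.42 FPKM in DMAG cells, against 7.34, 6.75 and 6.86 FPKM in controls. Its groups overlapped, and its log2 change of 0.07 did not pass (95% interval -0.06 to 0.21, limma adjusted p = 0.312).

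MXI1, a repressor and candidate tumour suppressor of the same family, had 11.1, 6.88 and 11.2 FPKM in DMAG cells, against 16.4, 14.8 and 15.5 FPKM in controls. Every DMAG library was below every control, and the second DMAG library was lower than the other DMAG libraries. The log2 change was -0.65 (SE 0.17, 95% interval -1.08 to -0.23, limma adjusted p = 0.0222), the largest of the 10 in size. Without the second DMAG library it was -0.45 with an adjusted p of 0.00438. The call was lost without the first control (adjusted p = 0.0648) and without the third (adjusted p = 0.058).

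The 4 MXD genes together summed to 41.0, 37.9 and 40.2 FPKM in DMAG cells, against 38.0, 36.5 and 36.0 FPKM in controls, and the lowest DMAG sum lay just under the highest control. Within that sum, MXI1 took 27.1%, 18.2% and 27.8% in DMAG cells, against 43.3%, 40.5% and 42.9% in controls. MXD1 took 25.9%, 29.7% and 26.5% in DMAG cells, against 18.0%, 18.4% and 20.4% in controls. The share of MXD3 was 29.6%, 31.98% and 27.2% in DMAG cells, against 19.4%, 22.6% and 17.7% in controls. So MXI1 was the largest of the 4 in each control library, MXD3 was the largest in the first and second DMAG libraries, and both were close in the third. MXD4 kept 17.4% to 20.2% in DMAG cells and 18.5% to 19.3% in controls. These shares follow from the levels above and carry no test of their own. FPKM is scaled per length, which allows levels of different genes to be set side by side.

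MNT, a repressor that dimerises with MAX and is found in most cell types, had 4.21, 4.63 and 4.97 FPKM in DMAG cells, against 5.40, 5.46 and 5.44 FPKM in controls. All DMAG libraries were below the controls, which had a CV of 0.578%. Its log2 change of -0.20 (SE 0.066, limma adjusted p = 0.044) passed narrowly and did not pass in 5 of the 6 fits with 1 library left out (adjusted p 0.0315 to 0.11). MGA, a large protein with both a T-box and a MAX-binding domain, had 26.1, 26.8 and 27.5 FPKM in DMAG cells, against 27.8, 27.5 and 28.7 FPKM in controls. The DMAG values were all below the controls, as was true of 31.6% of all genes tested, but the log2 change of -0.06 did not pass (95% interval -0.15 to 0.03, limma adjusted p = 0.231).

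MLX, the MAX-like partner of the glucose branch, had 18.4, 20.4 and 18.4 FPKM in DMAG cells, against 22.2, 22.2 and 24.2 FPKM in controls. The groups did not overlap, and the log2 change was -0.25 (SE 0.059, limma adjusted p = 0.0145). MLXIP, its glucose-sensing partner MondoA, had 22.8, 24.2 and 21.9 FPKM in DMAG cells, against 18.1, 19.3 and 18.8 FPKM in controls. Here too the groups did not overlap, in the other direction, with a log2 change of 0.28 (SE 0.051, limma adjusted p = 0.00499). The ratio of MLXIP to MLX was 1.24, 1.19 and 1.19 in DMAG cells and 0.813, 0.869 and 0.777 in controls, so MLXIP was the more abundant of the pair in all DMAG libraries and the less abundant in all controls.

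The paralogs of the network were near 0. MYCN was listed at 0 in each of the 6 libraries. MYCL had 0.0384, 0.175 and 0.331 FPKM in DMAG cells and 0.0161 to 0.0730 FPKM in controls. MLXIPL (ChREBP), another partner of MLX, was at or under 0.0411 FPKM in DMAG cells and at or under 0.175 FPKM in controls. None of the 3 reached the level tested.

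**Figure D2:**
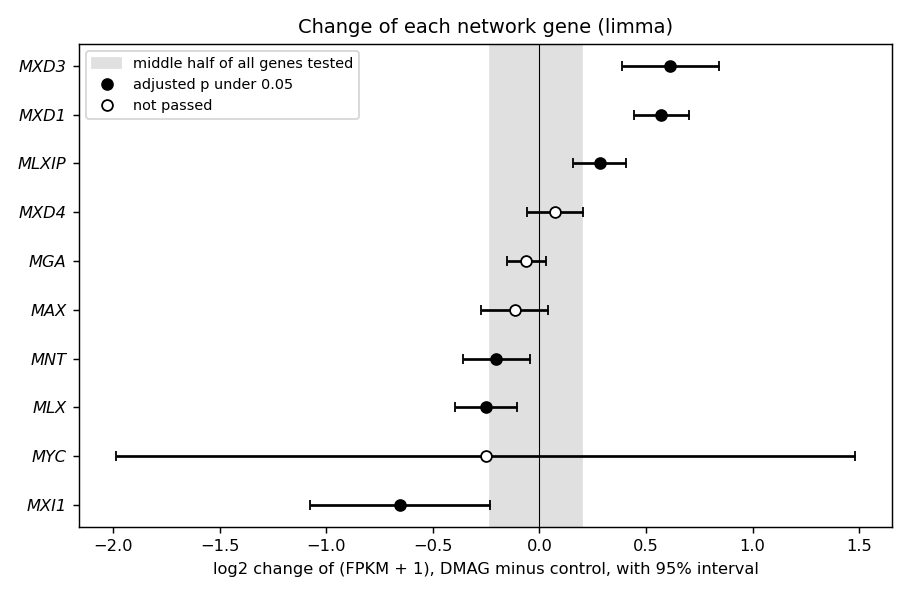
The log2 change of each network gene (horizontal axis, log2 of FPKM + 1, DMAG minus control) is drawn with its 95% interval, and filled points passed limma at an adjusted p under 0.05. The shaded band is the range of the middle part of all genes tested. MXD1 and MXD3 lie at 0.57 and 0.61, MXI1 lies at -0.65, and the interval of MYC reaches from -1.99 to 1.48.

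By transcript, the 10 genes had 61 entries, of which 39 reached a mean of 0.5 FPKM and 6 were 0 in every library. Of these 39, limma called 2 higher, 1 lower and 36 not passed, on a background of 10.3% of 26969 transcripts (4.58% higher and 5.7% lower). Transcripts of a gene share exons, so the division of reads between them is an estimate. MYC had 9 transcripts, 8 of them tested, and 1 was lower. That transcript, ENST00000520751, had 0.704, 0.888 and 1.22 FPKM in DMAG cells, against 3.10, 4.91 and 3.54 FPKM in controls. It did not overlap between groups, unlike MYC as a whole, with a log2 change of -1.31 (limma adjusted p = 0.0165), but it did not pass in 3 of the 6 fits with 1 library left out (adjusted p up to 0.0621).

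The other MYC transcripts swung from library to library. ENST00000621592 had 16.2, 0.546 and 0.202 FPKM in DMAG cells, against 1.17, 1.02 and 0.238 FPKM in controls. ENST00000641252 had 5.70, 1.06 and 0.0112 FPKM in DMAG cells, against 0.144, 13.5 and 0.0604 FPKM in controls, where it made up 53.2% of MYC in the second library alone. ENST00000524013, the most abundant on average, had 13.1, 1.23 and 13.1 FPKM in DMAG cells, against 5.38, 2.04 and 18.2 FPKM in controls. The highest value fell in a different library for each of these transcripts, the first DMAG library was high for all 3, and the groups overlapped.

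MXD1 came almost wholly from ENST00000264444, at 10.4, 11.05 and 10.5 FPKM in DMAG cells and 6.80, 6.68 and 7.22 FPKM in controls (log2 change 0.56, limma adjusted p = 0.00692). In MXD3, ENST00000439742 had 6.40, 7.02 and 6.30 FPKM in DMAG cells, against 3.64, 3.85 and 2.82 FPKM in controls. Its log2 change was 0.78 (limma adjusted p = 0.019), which did not pass in 4 of the 6 fits with 1 library left out (adjusted p up to 0.0731). The 3 other MXD3 transcripts tested had log2 changes of 0.33, 0.07 and 0.28, none of which passed. Both MXI1 transcripts tested had DMAG values below the controls without passing. ENST00000239007 had 8.32, 2.89 and 7.02 FPKM in DMAG cells, against 11.9, 8.40 and 11.1 FPKM in controls (limma adjusted p = 0.271).

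For MLX the sum was steadier than its transcripts. ENST00000246912 made up 35.4%, 16.1% and 29.9% of MLX in DMAG cells, against 91.0%, 22.2% and 29.7% in controls, so the first control library stood far from the others. ENST00000435881, the most abundant on average, had 7.81, 12.3 and 12.9 FPKM in DMAG cells, against 1.99, 13.8 and 9.42 FPKM in controls. The groups overlapped for both, and the lower MLX level is a statement on the sum only. MNT and MXD4 each rested on 1 transcript.

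**Figure D3:**
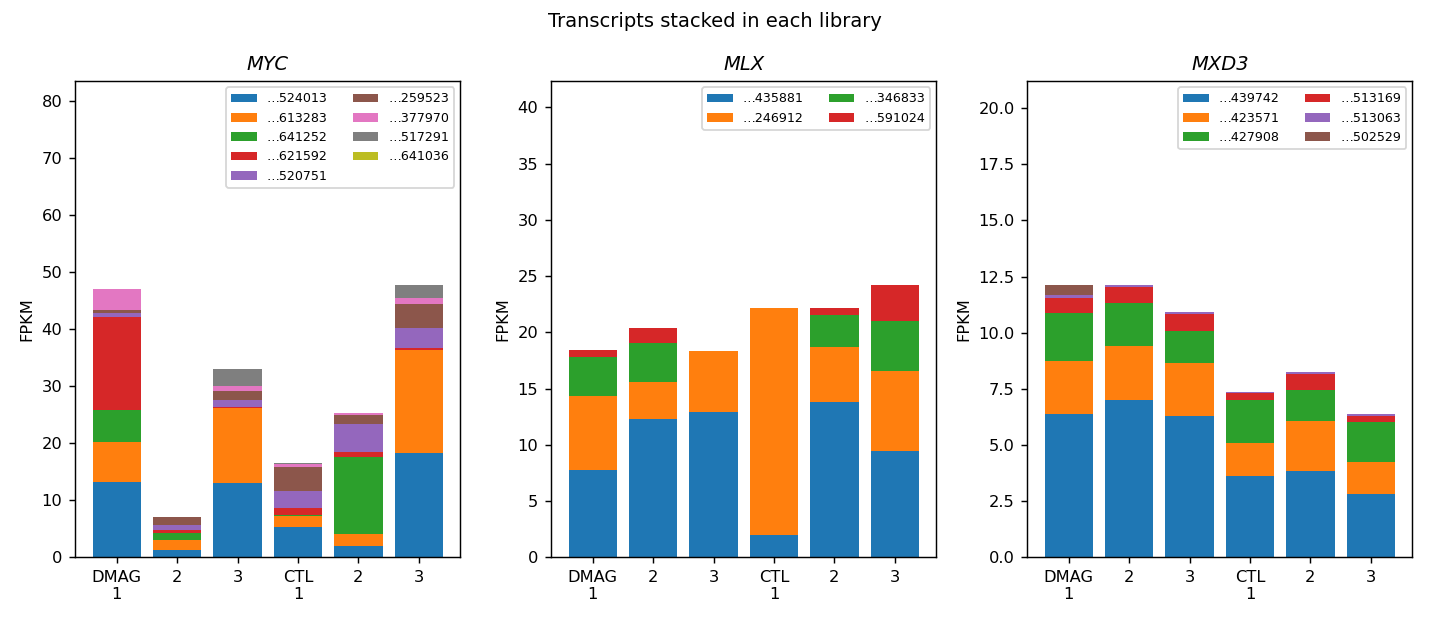
Bars stack the FPKM of the transcripts of MYC, MLX and MXD3 (vertical axis) in DMAG libraries 1 to 3 and control libraries 1 to 3, and legends give the last digits of the transcript names. The composition of MYC and of MLX differs between libraries of the same group, with ENST00000246912 at 91.0% of MLX in the first control, while ENST00000439742 is the largest part of MXD3 in all 6.

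Promoter windows of 300 bases, 250 before and 50 after an annotated start, were available from RefSeq (GRCh38.p14) for 9 of the 10 members. They were searched for CACGTG, the E-box core, which reads the same on both strands. MLX, MNT and MXD4 held it, and their windows are shown because they are the members that carry the motif bound by the network itself. E-box bases are in capitals, and each window runs 5′ to 3′ on the strand of its gene. The MLX window is chr17:42566850-42567149 on the plus strand, the MNT window chr17:2401011-2401310 on the minus strand, and the MXD4 window chr4:2262060-2262359 on the minus strand.
MLX: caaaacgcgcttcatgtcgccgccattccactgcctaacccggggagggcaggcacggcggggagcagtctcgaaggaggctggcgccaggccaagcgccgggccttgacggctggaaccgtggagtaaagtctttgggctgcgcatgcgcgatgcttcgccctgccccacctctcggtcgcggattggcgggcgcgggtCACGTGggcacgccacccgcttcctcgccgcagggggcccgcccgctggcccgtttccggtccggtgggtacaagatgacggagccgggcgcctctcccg
MNT: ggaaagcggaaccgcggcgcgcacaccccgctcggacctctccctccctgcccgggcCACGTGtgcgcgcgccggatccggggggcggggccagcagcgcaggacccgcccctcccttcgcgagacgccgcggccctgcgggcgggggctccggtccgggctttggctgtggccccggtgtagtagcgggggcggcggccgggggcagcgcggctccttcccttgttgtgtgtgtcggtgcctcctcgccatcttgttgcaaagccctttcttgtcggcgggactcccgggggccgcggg
MXD4: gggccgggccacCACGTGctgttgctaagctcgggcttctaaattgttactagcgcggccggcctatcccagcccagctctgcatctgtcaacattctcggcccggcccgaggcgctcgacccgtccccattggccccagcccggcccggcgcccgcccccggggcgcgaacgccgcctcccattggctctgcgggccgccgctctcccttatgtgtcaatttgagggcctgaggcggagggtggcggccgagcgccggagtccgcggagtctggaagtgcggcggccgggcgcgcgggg

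In the reference build MXI1 (ENSG00000119950) spans chr10:110207605-110287365, MLX (ENSG00000108788) chr17:42567100-42573203, MNT (ENSG00000070444) chr17:2384073-2401060 and MXD4 (ENSG00000123933) chr4:2247432-2262109. The motif began at position -50 from the start in MLX, -193 in MNT and -238 in MXD4. MLX and MNT were lower in DMAG cells, and MXD4 did not pass. The 6 members without the motif in any window were MXD1, MXD3 and MLXIP, all higher, MXI1, which was lower, and MAX and MGA, which did not pass. Over all promoter windows, 7.26% held the motif, as did 8.77% of all 27305 genes in at least 1 window. A match of letters is a description and not evidence of binding.

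Among the 8526 genes tested that had a window, 13.3% held CACGTG. Of the 1133 that held it, 33.1% were lower and 19.5% higher in DMAG cells, with a median log2 change of -0.06. Of the 7393 that did not, 25.3% were lower and 22.6% higher, with a median of -0.01. These shares are descriptions with no test.

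Genes reported as raised by MYC moved largely in one direction. A list of 64 such genes, chiefly nucleolar and ribosome assembly factors with enzymes of polyamine, nucleotide and sugar metabolism, was tested in full. It was chosen with earlier results of these data known. Of the 64 genes, 52 were lower in DMAG cells, 3 were higher and 9 did not pass, against 26.1% lower and 22.4% higher over all genes. The median log2 change was -0.50, against -0.01 over all genes tested. In each library the 64 genes summed to 3669, 3811 and 3855 FPKM with DMAG and to 5090, 5083 and 5235 FPKM in controls. These sums did not overlap between the groups. Abundant genes weigh more in such a sum: NPM1 alone averaged 734 FPKM in DMAG cells and 1018 FPKM in controls. MYC mRNA ran from 7.15 to 47.1 FPKM in DMAG cells and from 16.6 to 47.7 FPKM in controls. How the listed genes relate to MYC mRNA was not tested.

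SRM (spermidine synthase) had 91.3, 97.2 and 93.6 FPKM in DMAG cells, against 155, 160.1 and 159.8 FPKM in controls. The groups were far apart, with a log2 change of -0.74 (SE 0.037, limma adjusted p = 5.4e-05). UTP20, a factor of small ribosomal subunit assembly, had 16.4, 16.2 and 16.3 FPKM in DMAG cells, against 26.1, 26.0 and 26.7 FPKM in controls, a log2 change of -0.65 (SE 0.034, limma adjusted p = 6.3e-05). Other well known members on the lower side, chosen after their values were seen, were NPM1 (log2 change -0.47), NCL (-0.34), FBL (-0.74), ODC1 (-0.25), CAD (-0.28) and LDHA (-0.54). The 9 that did not pass were NOP2, UNG, MAP3K6, NOLC1, NIP7, TBRG4, CDK4, LAS1L and PLK4.

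RRP12 and RRP9, both ribosome assembly factors, went the other way by a wide margin. RRP12 had 28.1, 29.5 and 27.5 FPKM in DMAG cells, against 2.84, 3.09 and 2.59 FPKM in controls, a ratio of means of 9.99 (log2 change 2.94, SE 0.064, limma adjusted p = 4.9e-06). RRP9 had 8.50, 9.58 and 10.9 FPKM in DMAG cells, against 1.04, 1.11 and 1.37 FPKM in controls, a ratio of 8.25 (log2 change 2.29, SE 0.10, limma adjusted p = 4.5e-05). The remaining higher gene, MCM5, differed by 0.11 on the log2 scale (limma adjusted p = 0.0316). Without RRP12 and RRP9, a choice made after seeing the data, 1 gene was higher and 52 were lower.

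Windows were found for 52 of the 64 MYC target genes, which is 81.2%. Of these, 28 held CACGTG, which is 53.8%, against 8.77% of all genes and 13.3% of the genes tested. Of the 28 with the motif, 24 were lower, 1 was higher and 3 did not pass, and of the 24 without it, 19 were lower and none was higher. So most genes of the list with a window were lower, both with and without the motif. The higher genes RRP12 and MCM5 had no window and are in neither group. The windows of SRM, chr1:11059969-11060268 on the minus strand, and of UTP20, chr12:101279855-101280154 on the plus strand, are shown as those of the list's lower genes with the smallest p, and their motifs begin at positions -199 and -10.
SRM: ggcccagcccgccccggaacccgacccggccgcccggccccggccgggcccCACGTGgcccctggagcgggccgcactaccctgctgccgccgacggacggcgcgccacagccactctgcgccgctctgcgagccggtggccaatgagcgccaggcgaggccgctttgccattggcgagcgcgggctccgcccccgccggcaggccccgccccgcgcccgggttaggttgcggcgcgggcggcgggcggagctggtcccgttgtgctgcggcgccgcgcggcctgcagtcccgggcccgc
UTP20: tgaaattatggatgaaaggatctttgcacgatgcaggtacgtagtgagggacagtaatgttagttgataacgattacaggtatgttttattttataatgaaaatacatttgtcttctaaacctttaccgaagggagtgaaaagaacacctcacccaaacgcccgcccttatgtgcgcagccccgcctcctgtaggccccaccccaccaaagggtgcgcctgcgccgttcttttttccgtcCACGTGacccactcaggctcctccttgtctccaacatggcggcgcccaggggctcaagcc

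**Figure D4:**
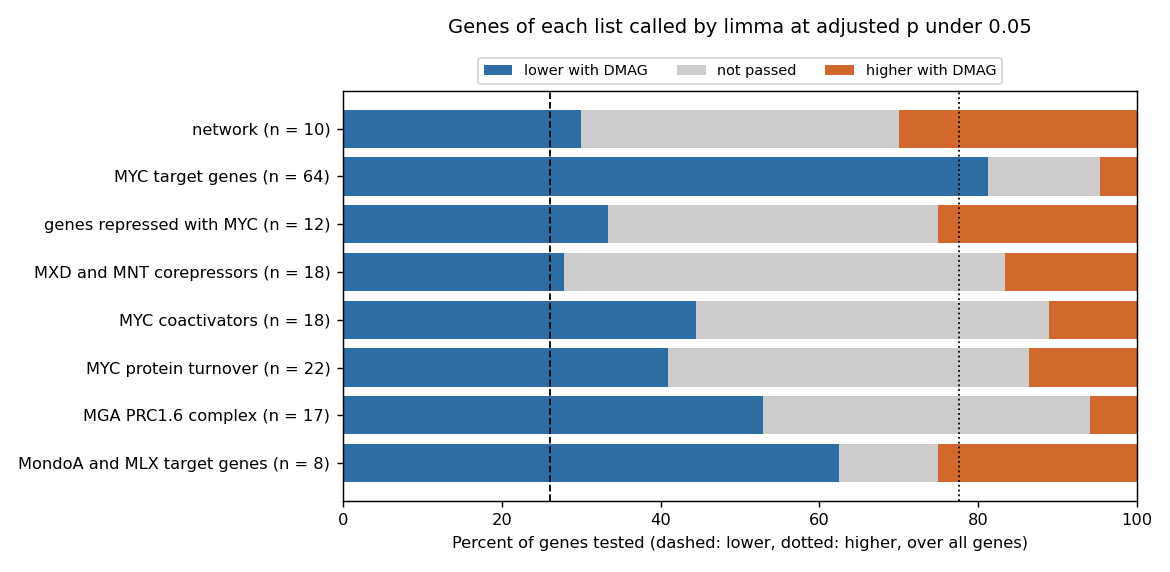
Bars show, for each gene list, the percent of genes tested (horizontal axis) that limma called lower, did not pass or called higher in DMAG cells, with dashed and dotted lines at the shares of all genes called lower (26.1%) and higher (22.4%). The MYC target genes have 52 of 64 on the lower side, and the network itself has 3 of 10 on each side.

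Genes reported as repressed by MYC showed no common direction. Of 18 listed, 12 reached the level tested, of which 3 were higher, 4 were lower and 5 did not pass. Their median log2 change was 0.02, and over all genes tested 22.4% were higher and 26.1% lower. NDRG1, a differentiation-linked gene, had 42.0, 50.6 and 47.5 FPKM in DMAG cells, against 22.9, 21.9 and 22.2 FPKM in controls (log2 change 1.03, limma adjusted p = 0.00014). BTG1, an antiproliferative factor, rose as well, with a log2 change of 0.75 (limma adjusted p = 0.00012). TXNIP, the gene of this list with the smallest p, was lower, and its values are given with the MondoA and MLX targets below. CEBPA, a myeloid transcription factor, fell by 0.48 on the log2 scale (limma adjusted p = 0.00034). GADD45A and ITGB1 were lower too, and FTH1 was the remaining higher gene. CDKN1B, which encodes the cell cycle inhibitor p27, averaged 21.3 ± 0.851 FPKM in DMAG cells and 20.2 ± 0.156 FPKM in controls (SD, n = 3 each) and did not pass, and CDKN1A was below the level tested.

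Of 18 corepressors that MXD proteins and MNT bring to DNA, 3 were higher, 5 were lower and 10 did not pass, against 48.6% called over all genes, with a median log2 change of -0.07. The count called was 5 without the third control. SIN3A, the scaffold that MXD proteins bind directly, had 37.8, 37.2 and 33.3 FPKM in DMAG cells, against 44.3, 45.1 and 49.0 FPKM in controls, with no overlap (log2 change -0.35, limma adjusted p = 0.00543). Its paralog SIN3B averaged 13.0 ± 0.479 FPKM in DMAG cells and 13.1 ± 1.78 FPKM in controls (SD, n = 3 each) and did not pass. Of the histone deacetylases of the complex, HDAC2 was lower (log2 change -0.64, limma adjusted p = 0.0124), and HDAC1 had a log2 change of -0.07 that did not pass. BRMS1 fell by 0.32, and RBBP4, a histone chaperone, was 0.21 higher, both on the log2 scale.

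Of 18 coactivators of MYC, 2 were higher, 8 were lower and 8 did not pass, with a median log2 change of -0.17. Over all genes tested, 22.4% were higher and 26.1% lower. KAT2A, the histone acetyltransferase GCN5, had 12.3, 13.5 and 13.4 FPKM in DMAG cells, against 21.1, 21.8 and 21.4 FPKM in controls (log2 change -0.67, limma adjusted p = 0.00016). The paired ATPases RUVBL2 and RUVBL1 fell by 0.47 and 0.25 on the log2 scale, and WDR5, which anchors MYC to chromatin, fell by 0.37. TRRAP, the large scaffold of the acetyltransferase complexes, had a log2 change of 0.04 that did not pass. The 2 higher coactivators were CDK9 and EP300, named after their values were seen, and with any 1 library left out at most 1 coactivator was higher.

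MYC protein is degraded within minutes, and mRNA levels do not report on it. Of 24 genes for enzymes and regulators of that turnover found in the table, 22 were tested, of which 3 were higher, 9 were lower and 10 did not pass, against 22.4% higher and 26.1% lower over all genes, with a median log2 change of -0.11. With 1 library left out, 8 to 12 were called, of which 1 to 4 were higher (1 without the second DMAG library, the second control or the third control). Ubiquitin ligases and deubiquitinases were among both the lower and the higher genes. The 3 higher genes were the ligase subunit FBXL14 and the deubiquitinases USP22 and USP37. They are named after their values were seen. SKP2, a ligase subunit, had 19.4, 25.6 and 22.2 FPKM in DMAG cells, against 32.3, 42.2 and 36.6 FPKM in controls (log2 change -0.70, limma adjusted p = 0.00528). USP36, a nucleolar deubiquitinase, fell by 0.60 and USP7, a deubiquitinase, by 0.25, while the kinase PLK1 fell by 0.21, all on the log2 scale. FBXW7, the ligase that recognises phosphorylated MYC, averaged 10.9 ± 0.516 FPKM in DMAG cells and 12.5 ± 0.686 FPKM in controls (SD, n = 3 each), with a limma adjusted p of 0.0384. AURKA, which protects MYC proteins from degradation, averaged 51.4 ± 10.9 FPKM in DMAG cells and 40.2 ± 5.69 FPKM in controls (SD, n = 3 each) and did not pass.

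MGA works within the noncanonical Polycomb complex PRC1.6. Of 17 genes for that complex, 9 were lower, 1 was higher and 7 did not pass, with a median log2 change of -0.13. Over all genes tested, 26.1% were lower and 22.4% higher. Of the 17 genes, 4 are also on another list here, among them WDR5, HDAC2 and CBX3, all lower. EHMT2, the histone methyltransferase G9a, had 13.5, 15.3 and 15.0 FPKM in DMAG cells, against 22.6, 25.6 and 24.8 FPKM in controls (log2 change -0.70, limma adjusted p = 0.00047). L3MBTL2 fell by 0.50 on the log2 scale, and KDM5C, a histone demethylase, was 0.28 higher. PCGF6, the subunit that defines the complex, averaged 7.81 ± 0.347 FPKM in DMAG cells and 9.69 ± 0.452 FPKM in controls (SD, n = 3 each), with a limma adjusted p of 0.00805. Of 17 genes listed as germline genes under MGA or its partner E2F6, 15 were below 0.5 FPKM on average. DAZL and DDX4 were listed at 0 in all libraries. Of the other 2, SYCE2 did not pass and SMC3 was lower (log2 change -0.16). SMC3 encodes a general cohesin subunit that is not confined to the germline, so its level does not report on silencing.

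Of 9 target genes of MondoA and MLX, 8 were tested, of which 5 were lower, 2 were higher and 1 did not pass, with a median log2 change of -0.45. Over all genes 26.1% were lower and 22.4% higher, and the count of lower targets was 4 under most alternatives. TXNIP, the glucose-responsive inhibitor of thioredoxin and the best known of these targets, had 15.4, 17.3 and 18.0 FPKM in DMAG cells, against 45.9, 43.5 and 48.0 FPKM in controls. That is a log2 change of -1.39 (SE 0.067, limma adjusted p = 5.1e-05), while MLXIP itself was higher and MLX lower. ARRDC4, its paralog, had 2.26, 1.94 and 2.03 FPKM in DMAG cells, against 4.26, 4.06 and 4.41 FPKM in controls (log2 change -0.77, limma adjusted p = 0.00031). HK2 (hexokinase) fell by 0.71 and SLC2A1 (the glucose transporter GLUT1) by 0.54 on the log2 scale. TXNIP is also on the list of genes repressed with MYC, and HK2 is also among the MYC target genes. The 2 higher genes were ARRDC3 and PFKFB3, named after their values were seen.

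Small RNA counts covered miRNAs reported to act on MYC or to be controlled by it. Levels are CPM (counts scaled to library size, by TMM in edgeR), column totals ran from 4303596 to 6003077 counts, and 583 miRNAs were tested, of which 45.3% were called (21.4% higher and 23.8% lower). Of 46 miRNAs tested on 4 lists, 14 were higher, 11 were lower and 21 did not pass. With column totals in place of TMM, 7 were higher and 18 were lower, against 13.6% higher and 35.5% lower over all miRNAs, whose median log2 change was then -0.28, against -0.08 with TMM. The let-7 family is known to target MYC mRNA, and its called members are shown with bases 2 to 8, the seed, in capitals (RefSeq, GRCh38.p14).
let-7b-5p: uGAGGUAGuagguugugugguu
let-7c-5p: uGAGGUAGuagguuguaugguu
let-7d-5p: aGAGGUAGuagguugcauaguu
let-7f-5p: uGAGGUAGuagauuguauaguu
let-7g-5p: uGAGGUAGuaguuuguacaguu
let-7i-5p: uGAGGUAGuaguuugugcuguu

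All 6 share the seed GAGGUAG and differ from each other at few bases outside it, so reads may have been assigned to the wrong member. Their directions differed. let-7i-5p had 48491, 46789 and 43631 CPM in DMAG cells, against 38342, 34804 and 38425 CPM in controls (edgeR quasi-likelihood log2 change 0.32, adjusted p = 0.00406). let-7f-5p (0.31), let-7g-5p (0.23) and let-7b-5p (0.34) were higher as well, each without overlap of the groups. With 1 library left out, let-7g-5p did not pass in 4 of the 6 fits (adjusted p up to 0.157), and let-7f-5p did not pass in 3 (up to 0.0838), in edgeR throughout. let-7d-5p had 1602, 1578 and 1549 CPM in DMAG cells, against 2022, 1937 and 1922 CPM in controls (log2 change -0.31, edgeR adjusted p = 0.0012), and let-7c-5p fell by 0.27. So of 11 miRNAs of the let-7 and miR-34 families tested, 4 were higher, 2 were lower and 5 did not pass. Over all miRNAs tested, 21.4% were higher and 23.8% lower. With column totals, 1 was higher, let-7i-5p, and 3 were lower, against 13.6% higher and 35.5% lower over all miRNAs.

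The miR-17-92 cluster is transcribed from MIR17HG, a textbook MYC target. Of its 11 mature miRNAs tested, none was higher, 7 were lower and 4 did not pass (edgeR). Those 4 were miR-92a-3p (log2 change -0.15), miR-20a-5p (-0.13), miR-19a-3p (0.03) and miR-19b-3p (-0.005). The first of them averaged 54765 CPM in DMAG cells and 60922 CPM in controls. Among the lower ones, miR-17-5p and miR-18a-5p averaged 33706 and 1491 CPM in controls. The remaining lower ones averaged 303 CPM or less in controls. Over all miRNAs tested, 21.4% were higher and 23.8% lower. Under every other scaling or filter tried, none of the cluster was higher and 5 to 9 were lower. Across those settings 8.49% to 35.5% of all miRNAs were lower. With 1 library left out, miR-18a-3p passed in no fit (edgeR adjusted p 0.08 to 0.133). The call of miR-18a-5p was lost in some of those fits (edgeR adjusted p up to 0.128). Neither passed in DESeq2 (adjusted p 0.216 for miR-18a-3p and 0.116 for miR-18a-5p). The members shown are the 4 with the smallest p, and miR-20a-5p, which shares the seed AAAGUGC with miR-17-5p.
miR-92a-1-5p: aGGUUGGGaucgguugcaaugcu
miR-17-3p: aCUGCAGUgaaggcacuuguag
miR-20a-3p: aCUGCAUUaugagcacuuaaag
miR-17-5p: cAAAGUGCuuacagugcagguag
miR-20a-5p: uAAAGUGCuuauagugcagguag

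The largest fall was in miR-92a-1-5p, with 102, 106 and 113 CPM in DMAG cells, against 310, 307 and 292 CPM in controls (log2 change -1.50, edgeR adjusted p = 7.1e-08). The abundant arm miR-17-5p had 23562, 25546 and 25428 CPM in DMAG cells, against 32261, 32168 and 36690 CPM in controls, with no overlap (log2 change -0.44, edgeR adjusted p = 0.00057). miR-20a-5p had 60895, 64942 and 66262 CPM in DMAG cells, against 68051, 62034 and 79535 CPM in controls. Its groups overlapped, and its log2 change of -0.13 did not pass (edgeR adjusted p = 0.281). miR-17-3p fell by 0.85 and miR-20a-3p by 0.66 on the log2 scale, both larger falls than those of the 5p arms of the same hairpins, though the difference between arms was not tested. MIR17HG summed to 10.5, 12.4 and 9.16 FPKM in DMAG cells, against 23.9, 20.5 and 22.9 FPKM in controls.

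**Figure D5:**
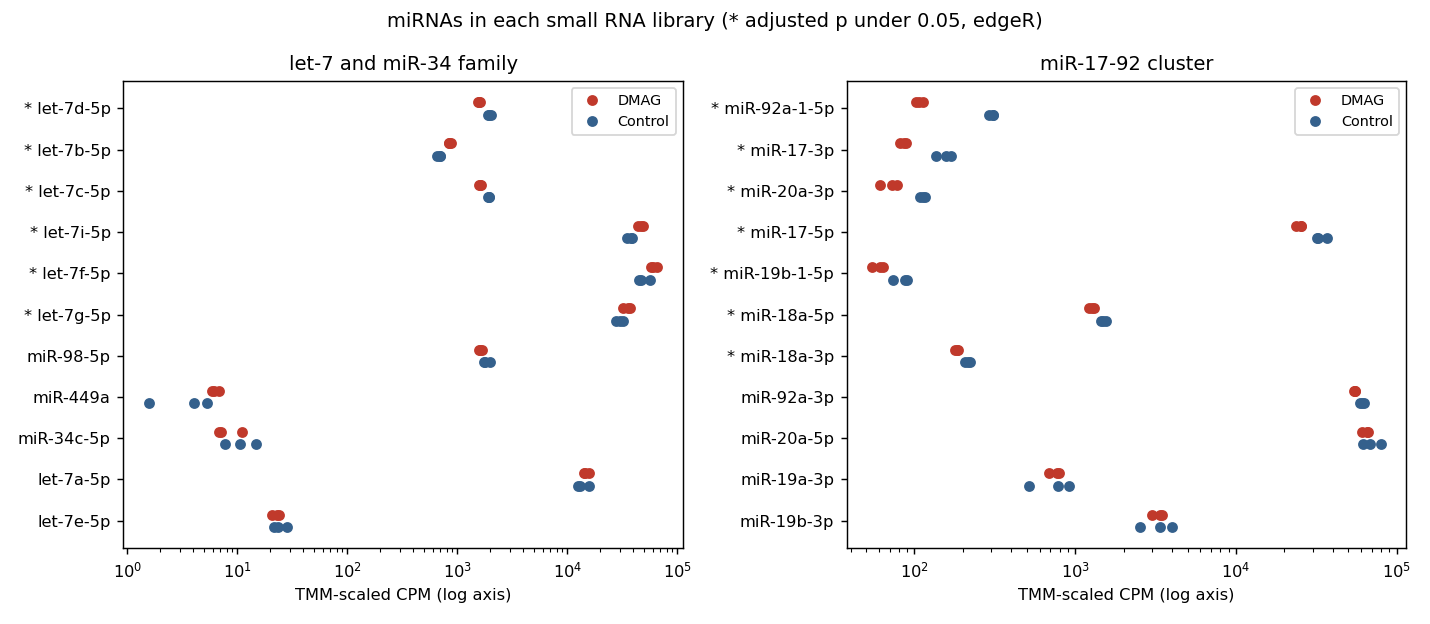
Each point is the level of 1 miRNA in 1 small RNA library (horizontal log axis, TMM-scaled CPM), for the let-7 and miR-34 families and for the miR-17-92 cluster, with DMAG above control in each row and a star where edgeR gave an adjusted p under 0.05. In the cluster miR-92a-1-5p shows the widest gap, 102 to 113 CPM with DMAG and 292 to 310 CPM in controls.

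Of 19 miRNAs reported as repressed by MYC, all tested, 9 were higher, 2 were lower and 8 did not pass. Over all miRNAs tested, 21.4% were higher and 23.8% lower. With column totals 6 were higher and 4 were lower, against 13.6% higher and 35.5% lower over all miRNAs. miR-30b-5p had 2963, 2911 and 2829 CPM in DMAG cells, against 1369, 1346 and 1642 CPM in controls (log2 change 0.998, edgeR adjusted p = 2.1e-06). miR-30c-5p and miR-30d-5p of the same family rose by 0.54 and 0.51 on the log2 scale. miR-30a-5p (-0.19) and miR-30e-5p (-0.13), which share the seed GUAAACA with miR-30c-5p, did not pass, and with column totals miR-30e-5p was lower (-0.32, edgeR adjusted p = 0.00183). miR-26b-5p fell by 0.50. Of 5 other miRNAs reported on MYC and tested, 1 was higher, miR-320b, with a log2 change of 0.30 (edgeR adjusted p = 0.0301). It did not pass with column totals (0.099, adjusted p = 0.503), with no filter or in 3 of the 6 fits with 1 library left out (adjusted p up to 0.115). With column totals that list had 0 higher and 2 lower of 5 in edgeR.

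PVT1, a long noncoding RNA gene next to MYC, summed over 4 transcripts to 24.4, 22.8 and 25.02 FPKM in DMAG cells, against 26.9, 25.2 and 22.6 FPKM in controls. The groups overlapped, and PVT1 did not show the wide spread of MYC. MYCBP2-AS1, an antisense RNA to a gene for a MYC-binding protein, was at or under 0.336 FPKM throughout. Other noncoding RNAs at the members were not analysed here.

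The genes most like MYC over the 6 libraries, by Pearson's correlation of log2(FPKM + 1) among 8022 other genes that averaged 5 FPKM or more, were WDR44 (r = 0.972), SUB1 (0.954), NCOA5 (0.951) and ANKRD40 (0.945). Each was lowest in the second DMAG library, as MYC was. For MXI1 they were USPL1 (r = 0.993), TMEM167B (0.992), DNA2 (0.991) and PPAN (0.989), with 69 genes over 0.95. With 6 points that share their libraries, and the groups apart for MXI1, these values describe the order of the libraries and no more. PPAN, also on the MYC target list, had 23.9, 15.4 and 25.6 FPKM in DMAG cells, against 39.4, 38.9 and 37.1 FPKM in controls.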

How the data were processed

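RNA-Seq and small RNA sequencing were each done on 3 DMAG and 3 control samples. Per the labels' protocols, ribosomal RNA was removed before RNA-Seq and dUTP marked the second strand. HISAT2 2.0.4, StringTie 1.3.3, Bowtie and the build GRCh38 are listed, without roles, in the submitters' processing notes. Counting rules are not stated there. The authors deposited FPKM per transcript for mRNAs and annotated lncRNAs, and read counts with TPM for miRNAs. The deposited TPM equalled CPM within 4.2e-10, so the counts were used.

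From these, FPKM was summed per gene and tested on log2(FPKM + 1) with limma 3.58.1 (R 4.3.3, empirical Bayes with a trend), at a mean of at least 0.5 FPKM. This scale understates the change of low genes. Transcripts were tested alike. miRNA counts were tested with edgeR 4.0.16 (quasi-likelihood, TMM, filterByExpr with a minimum count of 10), and DESeq2 1.42.0 was an alternative. P-values were Benjamini-Hochberg adjusted over all features and called under 0.05. The smallest exact permutation p with 3 against 3 is 0.10, so single values carry no such test. lncRNA levels and promoter motifs carry none either.

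The members and the 12 gene and 4 miRNA lists besides them were chosen with earlier results of these data known. Their counts are therefore descriptions and not independent support. Named genes were the 10 members, 3 paralogs, the member transcripts tested, up to 4 genes with the smallest p of each list, and the 4 genes most like MYC and like MXI1. Other genes and miRNAs named were chosen after their values were seen. RNA-Seq depth is unknown. Samples with the same number did not deviate together. Circular RNAs and unannotated lncRNAs were not used, since they could not be tied to members.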

Additional observations from a re-analysis of the deposited data

How the results depend on the processing

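Alternatives for mRNA were another pseudocount, filter or centring, the most abundant transcript in place of the gene sum, each library left out, and a replicate block. For miRNA they were column totals, DESeq2, no filter, each library left out and the block. MXD1, MXD3 and MLXIP were called higher and MLX lower in every mRNA alternative except the most abundant transcript, where MLX had a log2 change of 0.61 and MYC one of 0.085, both reversed and not passed, and where MLXIP, MXI1 (-0.78) and MNT did not pass. With that transcript 3354 genes, 2 network genes, 4 corepressors and 6 PRC1.6 genes were called. MYC ranged from -0.76 to 0.52 with 1 library left out, 0.14 without the third control. Counts of calls with 1 library left out ran from 4224 to 4593 for all genes, 4 to 6 for network genes, 51 to 55 for MYC target genes, 1 to 3 for network transcripts (1 without the first or second DMAG library) and 5 to 8 for corepressors (5 without the third control). MNT was lost with no filter (adjusted p = 0.0803) and with equal medians (0.0681). Samples with the same number showed no shared deviation (correlations of deviations -0.0123 to 0.0426), which cannot show whether they were paired. Under the block, limma called 5 network genes, with MNT at an adjusted p of 0.0769, and 0 network transcripts, of which 6 had an unadjusted p under 0.05. It called 4491 genes, and edgeR 247 miRNAs, let-7f-5p and let-7g-5p not among them. Of the other comparisons, 132 total counts stayed within 1.5 times, though column totals turned all miRNAs to 79 higher and 207 lower and DESeq2 to 131 and 96, against 125 and 139 with TMM, and 125 single values kept their side of the threshold. The unknown depth limits what can be said of MYC paralogs and germline genes. The cause of these differences was not tested.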
